A study of Mus musculus with 9 samples.

Results

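Hyaluronan is a long sugar polymer that carries the proteoglycans of cartilage. The 7 genes described here are Acan, Vcan, Hapln1, Hapln3, Has2, Cd44 and Prg4. Their products belong to the complex of hyaluronan with proteoglycans, or make, hold or work beside hyaluronan. The genes were taken by symbol from a raw count table of 43472 mouse genes. All 7 were found in the table, and all 7 passed the filter on low counts that kept 14257 genes for testing. RNA was sequenced from C57BL/6J mice in 9 libraries, 3 of bone (Bone, labelled osteoblasts), 3 of mature cartilage (MatC, labelled mature chondrocytes) and 3 of immature cartilage (ImC, labelled immature chondrocytes). No treatment, allele, age, sex or skeletal site is given in the labels, and nothing there ties a replicate to an animal of its own. The p-values below therefore measure only how far these samples spread, which may be technical.

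In cartilage, aggrecan, the product of Acan, is a core protein loaded with chondroitin sulfate chains that hold water and let the tissue resist compression. Aggrecan monomers line up along hyaluronan, and a link protein locks each one in place. Hyaluronan is made at the cell membrane by synthases, held at the cell surface by receptors such as Cd44, and at joint surfaces works beside lubricin, the product of Prg4.

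The labels were compared with marker genes. Summed over 16 osteoblast markers, levels ran between 89440 and 106439 CPM (reads per 1000000 after scaling) in Bone, between 3048 and 31680 CPM in MatC and between 993.2 and 2190 CPM in ImC. The 18 immature chondrocyte markers, which include none of the 7 genes, summed to between 3203 and 3800 CPM in Bone, against 13756 to 30807 CPM in MatC and 19419 to 31172 CPM in ImC. Among those 18, the collagen gene Col11a1 made up most of the sum in Bone and Scrg1 had no read there. For 11 hypertrophic markers the sums were 18444 to 23776 CPM in Bone, 5642 to 14366 CPM in MatC and 192.0 to 745.2 CPM in ImC. Ibsp, a matrix gene that is also in the osteoblast list, made up most of the Bone sum, at 16294 to 20079 CPM. Col10a1, the collagen of hypertrophic cartilage, had 0.845 to 2.48 CPM in Bone, against 816.9 to 4760 CPM in MatC and 0.427 to 0.75 CPM in ImC. Of the 11, 5 were called lower and 0 higher in Bone than in MatC, beside 4.69% and 1.36% of all tested genes. Total counts were between 7913684 and 23159547 reads per library, and mitochondrial genes took 7.24% to 8.91% of them in Bone, 33.7% to 82.3% in MatC and 32.02% to 55.0% in ImC. Several libraries stood apart in depth or in their markers. MatC replicate 3 had the highest mitochondrial share and reads in 14940 genes, against at least 17535 in every other library, and 3 reads there equalled 0.849 CPM, against at most 0.257 CPM elsewhere. ImC replicate 2 had the highest level of the 3 ImC libraries for 10 of 12 tested joint surface and synovial genes, against 35.1% of all tested genes. In ImC replicate 3, erythroid markers summed to 1424 CPM, against 9.75 and 21.0 CPM in ImC replicates 1 and 2. Perichondrium, tendon and fibroblast markers summed to 265.4 CPM there, against 809.8 and 948.6 CPM. MatC replicate 2 had the highest MatC sums for osteoblast markers (31680 CPM, against 9958 and 3048 CPM in MatC replicates 1 and 3), osteoclast markers (634.0, against 141.6 and 48.7 CPM), erythroid markers (3506, against 1112 and 874.1 CPM) and skeletal muscle markers (298.1, against 24.3 and 68.7 CPM). For some of the 7 genes, fold changes without one of these libraries are also given. For the other genes of the lists, fold changes and calls are given with all 9 libraries only, so some may rest on few libraries.

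The genome places each lectican gene (the proteoglycan family of Acan, Vcan, Bcan and Ncan) next to a link protein gene, and the sequences before the start sites of the 2 neighbouring pairs studied here are shown because Acan and Hapln1 differed between bone and cartilage while the neighbour of each, Hapln3 and Vcan, was not called. On GRCm38 with GENCODE M21, Acan lies on chromosome 7 from 79053483 to 79115099 on the plus strand, and Hapln3 follows on the minus strand from 79115102 to 79131018, so the 2 genes end tail to tail with 2 bases between them. Hapln1 lies on chromosome 13 from 89539796 to 89611652 on the plus strand and Vcan from 89655312 to 89742509 on the minus strand, 43659 bases apart. No other protein-coding gene lies between the members of either pair. The 250 bases upstream of each RefSeq start (GRCm38.p6) read as follows, 5′ to 3′ on the gene's strand, with matches to searched motifs in capitals.
Acan, chr7:79052976-79053225, plus strand: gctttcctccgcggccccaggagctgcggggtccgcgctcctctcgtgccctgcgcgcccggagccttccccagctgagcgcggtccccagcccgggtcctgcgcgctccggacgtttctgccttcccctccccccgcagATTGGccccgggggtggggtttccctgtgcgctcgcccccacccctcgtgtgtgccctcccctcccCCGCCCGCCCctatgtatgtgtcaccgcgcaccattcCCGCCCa
Hapln3, chr7:79131019-79131268, minus strand: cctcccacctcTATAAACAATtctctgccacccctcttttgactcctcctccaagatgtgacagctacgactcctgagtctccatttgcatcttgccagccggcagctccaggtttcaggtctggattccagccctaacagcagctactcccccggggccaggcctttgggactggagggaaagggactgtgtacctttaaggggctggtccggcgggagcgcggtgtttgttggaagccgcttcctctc
Vcan, chr13:89742513-89742762, minus strand: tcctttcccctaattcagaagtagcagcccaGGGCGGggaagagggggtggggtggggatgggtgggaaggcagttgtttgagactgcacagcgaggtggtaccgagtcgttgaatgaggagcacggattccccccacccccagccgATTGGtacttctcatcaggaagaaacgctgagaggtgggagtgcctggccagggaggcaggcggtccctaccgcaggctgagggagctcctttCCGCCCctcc
Hapln1, chr13:89540386-89540635, plus strand: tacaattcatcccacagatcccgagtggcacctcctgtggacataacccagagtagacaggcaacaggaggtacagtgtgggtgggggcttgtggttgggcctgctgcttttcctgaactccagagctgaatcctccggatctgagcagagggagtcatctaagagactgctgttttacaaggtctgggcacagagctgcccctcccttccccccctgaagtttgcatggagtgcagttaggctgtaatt

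The RefSeq starts of Acan, Vcan and Hapln1 differ from the ends of their GENCODE spans, and the Hapln1 window lies inside the GENCODE gene. The Acan window held 74.4% G and C, the Vcan window 62.4%, the Hapln3 window 58.0% and the Hapln1 window 54.4%, against a median of 52.4% over 32536 windows of the same length. The Acan window also held 26 CG dinucleotides, 0.81 times the number its base composition gives, against a median of 0.38 over all windows. In the Hapln1 window there were 2, which is 0.11 times that number. The searched motifs were CCAAT letters, a GC box spelled GGGCGG, the promoter element TATAAA, a SOX core spelled ACAAAG, a second spelling of that core, AACAAT, and the AP-1 site TGANTCA, each read on both strands. Acan and Vcan each held a CCAAT match, read as ATTGG, from -110 to -106 in Acan and from -103 to -99 in Vcan. GC box letters matched at 3 places in Acan, 2 of them overlapping, and at 2 places in Vcan. Hapln3 held TATAAA from -239 to -234, overlapping AACAAT from -235 to -230, and no motif matched in Hapln1. Of all windows, 33.8% held CCAAT, 33.0% GGGCGG, 12.3% TATAAA, 16.5% ACAAAG, 9.3% AACAAT and 6.7% TGANTCA.

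Acan and Hapln1, the core protein and its link protein, were the genes of the set that separated bone from cartilage most widely. Acan stood at 0.596, 0.856 and 1.91 CPM in Bone replicates 1 to 3 (11, 10 and 34 reads), at 969.0, 630.0 and 1519.8 CPM in MatC and at 1128.7, 865.0 and 1346.6 CPM in ImC. Every Bone library lay far below every cartilage library, and the 2 cartilage groups overlapped. Mean levels were 1.12 ± 0.70 CPM in Bone, 1039.6 ± 449 CPM in MatC and 1113 ± 241 CPM in ImC (SD, n = 3 each). By mean level among the 14257 tested genes, Acan ranked 12156 in Bone, 58 in MatC and 52 in ImC. In Bone, Acan fell by 9.83 ± 0.66 on the log2 scale against MatC (SE, edgeR quasi-likelihood test, adjusted p = 9.67e-05). Against ImC, it fell by 9.93 ± 0.67 (adjusted p = 4.54e-05). Between the cartilage groups the log2 fold change of MatC against ImC was -0.10 ± 0.45 (adjusted p = 0.918). In bulk RNA, fewer cells that express a gene and less RNA per cell cannot be told apart. Of the 18 immature chondrocyte markers, 15 were called lower in Bone than in MatC, beside 4.69% of all tested genes. In Bone against ImC, 17 of them were called lower, beside 16.8%. Their part in the Acan and Hapln1 differences was not tested.

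Hapln1 encodes the cartilage link protein. It stood at 60.5, 23.7 and 22.9 CPM in Bone, 2825, 832.4 and 3138 CPM in MatC and 1339, 825.4 and 577.1 CPM in ImC. Bone was again below every cartilage library, but its levels were not near 0, and Bone replicate 1 was the highest of the 3. Mean levels were 35.7 ± 21.5 CPM in Bone, 2265 ± 1251 CPM in MatC and 913.7 ± 388 CPM in ImC, and by mean level Hapln1 ranked 2852 in Bone, 25 in MatC and 64 in ImC. In Bone, Hapln1 fell by 5.99 ± 0.71 against MatC (edgeR adjusted p = 0.00151) and fell by 4.68 ± 0.66 against ImC (adjusted p = 0.00111), both on the log2 scale. For MatC against ImC the log2 fold change was 1.31 ± 0.58, which missed the threshold (edgeR adjusted p = 0.192). The groups overlapped because MatC replicate 2, the MatC library with the highest osteoblast, osteoclast, erythroid and skeletal muscle marker sums, lay beside the ImC libraries. Without it the value was 1.71 ± 0.52 (adjusted p = 0.0992). The part of those markers was not tested.

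Vcan encodes versican, the lectican of loose and developing connective tissue, and it did not share the pattern of Acan. Its level was 117.6, 142.9 and 127.7 CPM in Bone, 115.8, 53.2 and 3.39 CPM in MatC and 30.7, 195.3 and 23.2 CPM in ImC. The Bone libraries were close together, whereas the highest library was 34.1 times the lowest in MatC and 8.41 times the lowest in ImC. Bone lay above all 3 MatC libraries, MatC replicate 1 by little, but the log2 fold change of 1.16 ± 0.99 was not called (edgeR adjusted p = 0.535). Bone against ImC gave 0.64 ± 0.98 (adjusted p = 0.650) and MatC against ImC -0.52 ± 0.98 (adjusted p = 0.785). A single library held the ImC mean of 83.1 ± 97.3 CPM up, and without ImC replicate 2 the value for MatC against ImC turned to 1.11 (adjusted p = 0.473) and that for Bone against ImC became 2.27 (adjusted p = 0.0995). With MatC replicate 3 left out as well, an alternative chosen after seeing the data, Vcan was called higher in MatC than in ImC, at 1.65 ± 0.40 (adjusted p = 0.0412), and higher in Bone than in ImC, at 2.27 ± 0.39 (adjusted p = 0.00408).

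Hapln3, a link protein gene expressed in many tissues and the genomic neighbour of Acan, was scarce everywhere. Reads numbered 34, 19 and 19 in Bone, 3, 32 and 1 in MatC and 13, 9 and 8 in ImC, which is 1.84, 1.63 and 1.07 CPM in Bone, 0.227, 2.26 and 0.283 CPM in MatC and 1.08, 0.447 and 0.570 CPM in ImC. The groups overlapped in all 3 comparisons. Its log2 fold changes were 0.60 ± 0.86 for Bone against MatC, 1.12 ± 0.86 for Bone against ImC and 0.52 ± 0.88 for MatC against ImC (edgeR adjusted p = 0.729, 0.346 and 0.758). At a few reads per library, a change of the size of these errors was not detectable. MatC replicate 2, with the marker sums given above, carried the MatC mean: without it Bone against MatC was 2.59 and MatC against ImC -1.45, neither called.

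**Figure D1:**
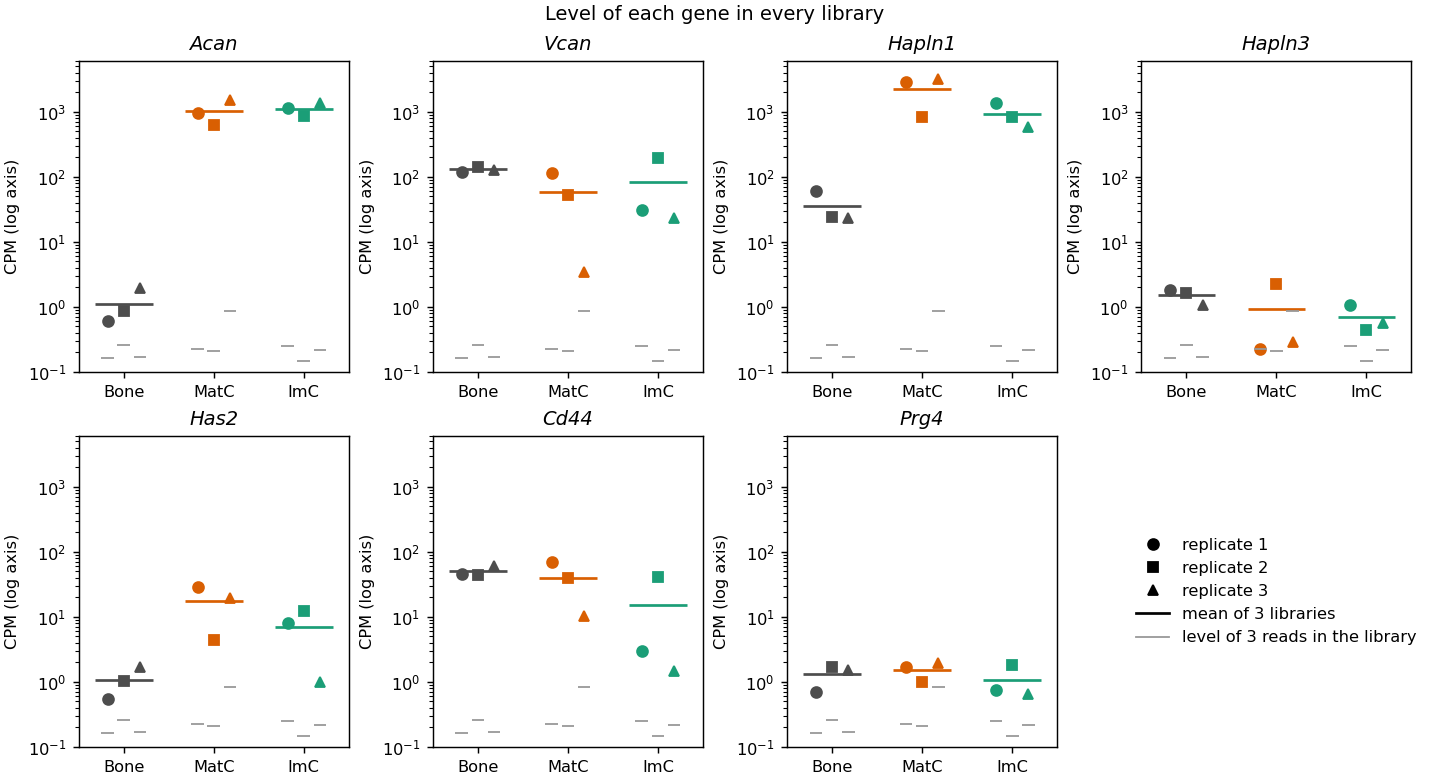
Level of each of the 7 genes in CPM on a log axis, with 1 point per library (circle, square and triangle for replicates 1, 2 and 3), a bar for the mean of 3 libraries and a thin grey dash for the level of 3 reads in each library. Acan in Bone lies between 0.596 and 1.91 CPM, against at least 630.0 CPM in every cartilage library, while Vcan and Cd44 are spread within MatC and ImC and Prg4 stays below 2 CPM throughout.

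Has2 is the main hyaluronan synthase of cartilage and of the developing limb (chromosome 15, 56665627 to 56694539). It stood at 0.541, 1.03 and 1.69 CPM in Bone (10, 12 and 30 reads), 28.3, 4.37 and 19.2 CPM in MatC and 8.0, 12.1 and 0.997 CPM in ImC. All MatC libraries were above Bone, but ImC replicate 3 fell within the Bone range. In Bone, Has2 fell by 3.98 ± 0.95 on the log2 scale against MatC (edgeR adjusted p = 0.0378) and fell by 2.69 ± 0.91 against ImC (adjusted p = 0.0465). Both calls sat near the threshold: over 20 other settings the first was lost in 10 and the second in 12, with adjusted p up to 0.164 and 0.204, and the direction stayed the same in all 20. Leaving out any 1 Bone library, ImC replicate 1, MatC replicate 1 or MatC replicate 3 ended both calls, and leaving out ImC replicate 2 ended the call against ImC. Without both ImC replicate 2 and MatC replicate 3 the values were -3.90 ± 1.01 and -2.03 ± 0.99 (adjusted p = 0.0701 and 0.135). MatC against ImC gave 1.29 ± 0.84 (adjusted p = 0.380). On the opposite strand the non-coding gene Has2os shares 182 exonic bases with Has2, and the library kit does not mark strand, so reads there cannot be assigned to one gene. Has2os had 0.514 to 0.866 CPM in Bone, 0.493 to 1.36 CPM in MatC and 2.83, 1.99 and 11.54 CPM in ImC, so its highest level was in the ImC library in which Has2 was lowest.

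The other synthases were at low levels. Has3 had 1.35, 1.03 and 0.394 CPM in Bone, 0.758, 1.13 and 0.849 CPM in MatC and 0.917, 1.59 and 0.926 CPM in ImC, and was not called in any comparison. Has1 did not pass the filter: it had 0.113 to 0.171 CPM in Bone and 0 to 0.849 CPM in MatC, and in ImC 0.50, 0.596 and 5.41 CPM. In ImC replicate 3, where Has2 was lowest, Has1 was the synthase with most reads.

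Cd44 encodes the cell-surface receptor that holds hyaluronan around chondrocytes and is also abundant on leukocytes and osteoclasts (chromosome 2, 102811141 to 102901665). Its level was 45.4, 44.8 and 60.2 CPM in Bone, 70.9, 39.5 and 10.5 CPM in MatC and 3.0, 41.5 and 1.5 CPM in ImC. Bone exceeded all ImC libraries, ImC replicate 2 narrowly, and ImC replicate 2 was 27.7 times the lowest ImC library. None of the comparisons passed the test: the log2 fold change was 0.30 ± 1.01 for Bone against MatC, 1.70 ± 1.03 for Bone against ImC and 1.40 ± 1.03 for MatC against ImC (edgeR adjusted p = 0.894, 0.232 and 0.439). Without ImC replicate 2, Cd44 was called higher in MatC than in ImC by 4.18 ± 0.77 (adjusted p = 0.0212) and higher in Bone than in ImC by 4.49 ± 0.78 (adjusted p = 0.00398). Without MatC replicate 3 too, an alternative chosen after seeing the data, those values were 4.63 ± 0.48 (adjusted p = 0.00253) and 4.49 ± 0.47 (adjusted p = 0.000556). Bone against MatC then turned to -0.13 ± 0.37 (adjusted p = 0.901). For Cd44 these were the highest ImC library and the lowest MatC library, so leaving both out raises MatC against ImC by construction.

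**Figure D2:**
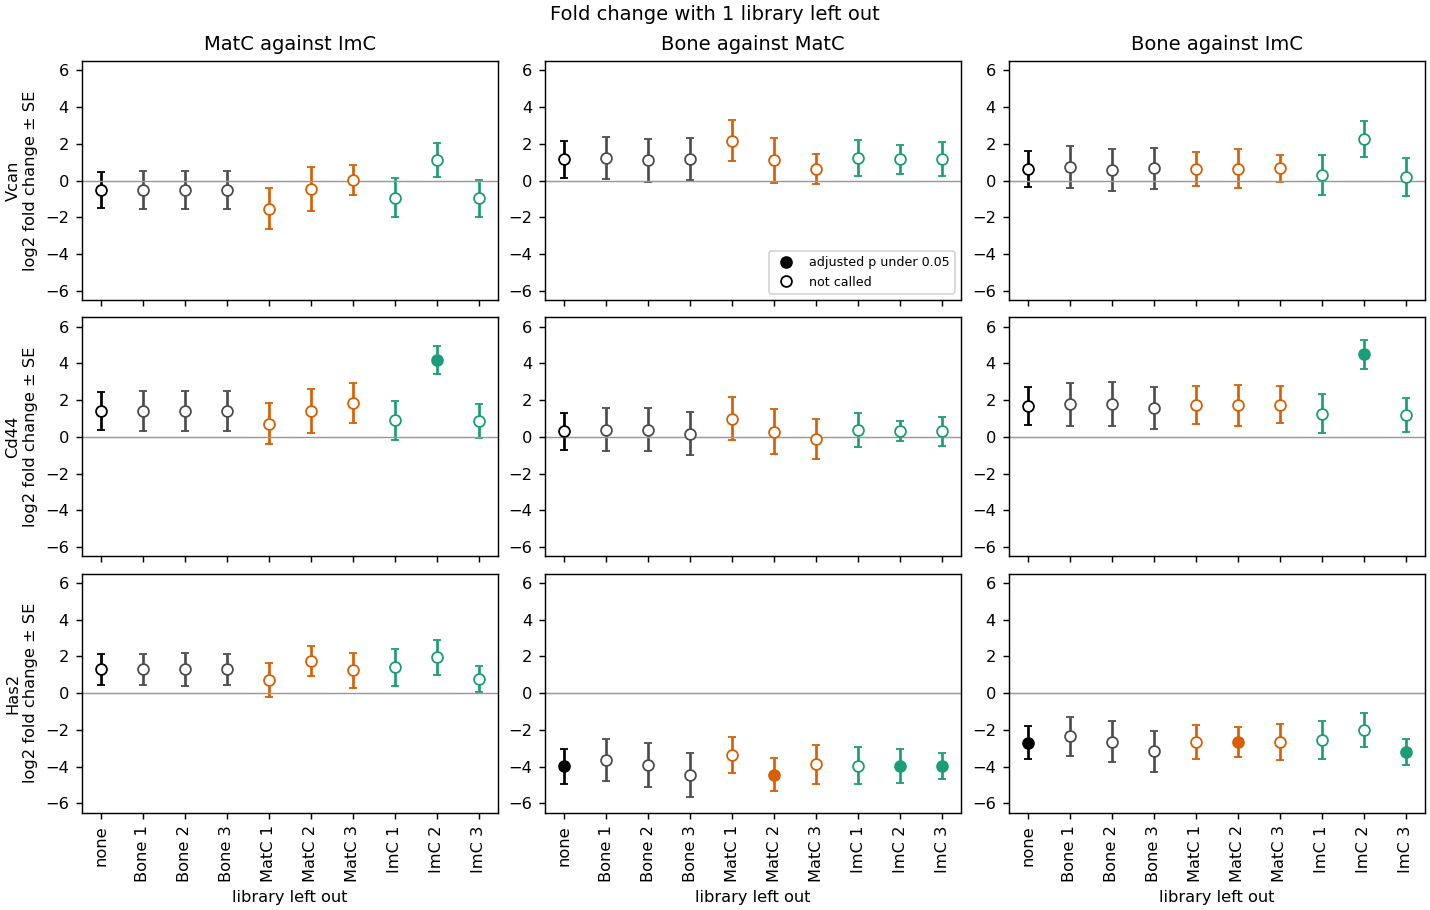
Log2 fold change with its SE for Vcan, Cd44 and Has2 in the 3 comparisons, with all 9 libraries (none) and with each library left out in turn; filled points have an adjusted p under 0.05. Cd44 moves to 4.18 and 4.49 when ImC replicate 2 is left out, and the filled points of Has2 become open for most libraries left out.

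Markers of other tissues moved with ImC replicate 2 and MatC replicate 3. In ImC replicate 2 the 12 joint surface and synovial genes summed to 232.5 CPM, against 44.7 and 54.7 CPM in ImC replicates 1 and 3. Creb5, Htra1, Sfrp5, Gdf5, Erg and Cilp were highest there, at 71.5, 42.4, 30.2, 29.5, 20.4 and 18.9 CPM, named after their values were seen. Sfrp5 was almost as high in ImC replicate 3, at 29.0 CPM, where Cilp had no read. Vit and Clic5 had no read in ImC replicate 2, and Prg4 was at 1.84 CPM. The 14 macrophage and leukocyte markers summed to 11.9 CPM in ImC replicate 2, the lowest of the 3, with C1qa, C1qb and Emr1 at 0 reads in every ImC library. Laptm5 made up most of the ImC sums, at 23.8, 8.54 and 25.9 CPM in replicates 1 to 3, so their order is mainly that of Laptm5. In MatC replicate 3 the endothelial sum of 12 markers was 37.9 CPM, against 128.0 and 342.1 CPM in MatC replicates 1 and 2, with Tie1 and Robo4 at 0 reads. Macrophage and leukocyte markers summed to 26.3 CPM in that library, of which Laptm5 made up 18.7 CPM, against 33.0 and 125.3 CPM. Ptprc, Tyrobp, Cd14 and Itgam had 0 reads there. In MatC replicate 1, Ptprc, Cd14 and Itgam had only 0.303, 0.152 and 0.455 CPM. As 3 reads in MatC replicate 3 equalled 0.849 CPM, 0 reads of these genes do not show a level below that of replicate 1. MatC replicate 3 was the lowest MatC library for 11 of 12 endothelial and 12 of 13 tested macrophage and leukocyte markers, against 44.0% of all tested genes. In Bone against ImC, 10 of 13 tested macrophage and leukocyte markers and 9 of 12 endothelial markers were called higher in Bone, with sums of 61.6 to 149.7 and 66.0 to 203.0 CPM in Bone, against 11.9 to 32.3 and 8.0 to 25.9 CPM in ImC. Of all tested genes, 14.3% were called higher in that comparison. For osteoclast markers, 8 of 10 were called higher in Bone than in ImC, with sums of 519.6 to 1128 CPM in Bone, against 22.6 to 50.8 CPM in ImC, where Dcstamp and Calcr had no read. Their sum in MatC was lowest in replicate 3, at 48.7 CPM. Calcr had no read there, but only 0.0758 CPM in MatC replicate 1, where Dcstamp and Oscar had no read. In ImC the osteoclast sum was highest in replicate 2, of which Nfatc1 made up 44.7 CPM. Of the 14 tested perichondrium, tendon and fibroblast markers, 10 were lowest of MatC in replicate 3, against 44.0% of all tested genes, and 7 were highest of ImC in replicate 2, against 35.1%. The 16 genes of that list summed to 1123 to 1908 CPM in Bone, 2664, 1424 and 1217 CPM in MatC and 809.8, 948.6 and 265.4 CPM in ImC, with Tnmd and Dpt at 0 reads in ImC. The part of these markers in the Vcan and Cd44 levels was not tested.

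Prg4 encodes lubricin, the boundary lubricant of the joint surface and synovium (chromosome 1, 150449412 to 150466165), and was near the limit of detection in all tissues. It stood at 0.704, 1.71 and 1.52 CPM in Bone, 1.67, 0.987 and 1.98 CPM in MatC and 0.750, 1.84 and 0.641 CPM in ImC, from 7 to 37 reads per library. The groups overlapped throughout, and log2 fold changes were -0.21 ± 0.67 for Bone against MatC, 0.26 ± 0.66 for Bone against ImC and 0.47 ± 0.68 for MatC against ImC (edgeR adjusted p = 0.891, 0.789 and 0.712). Tpr, a nuclear pore gene on the opposite strand, shares 204 exonic bases with Prg4 and had 49.7 to 59.5 CPM in Bone, 60.4 to 82.3 CPM in MatC and 121.4 to 156.0 CPM in ImC. Unstranded reads in those bases could belong to either gene, so the Prg4 level is uncertain.

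Counted together, 3 of the 7 genes (Acan, Hapln1 and Has2) were called lower in Bone than in MatC and 0 were called higher, where 6.05% of all tested genes were called, 4.69% lower and 1.36% higher. The same 3 were called lower in Bone than in ImC and 0 higher, beside 31.1% of all tested genes, 16.8% lower and 14.3% higher. These comparisons share the Bone libraries. Between MatC and ImC, 0 of 7 passed edgeR's test, beside 7.71% of all tested genes, 5.41% higher and 2.29% lower, and 1 of 7 (Hapln1) had an unadjusted p under 0.05. DESeq2 also called 0, while leaving out ImC replicate 2 gave 1. Leaving out MatC replicate 3 too, chosen after seeing the data, gave 2. By non-overlap of the groups, 3 genes were lower in Bone than in MatC and Vcan was higher, beside 35.6% of all tested genes, 17.7% lower and 17.9% higher. Acan and Hapln1 were lower in Bone than in ImC without overlap and Cd44 was higher, beside 59.0% of all tested genes, 28.8% lower and 30.1% higher. No member separated MatC from ImC, beside 23.9% of all tested genes, 11.4% higher and 12.5% lower. The median log2 fold change of the 7 was -0.21 for Bone against MatC, 0.26 for Bone against ImC and 0.52 for MatC against ImC, beside -0.03, -0.02 and 0.03 over all tested genes.

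**Figure D3:**
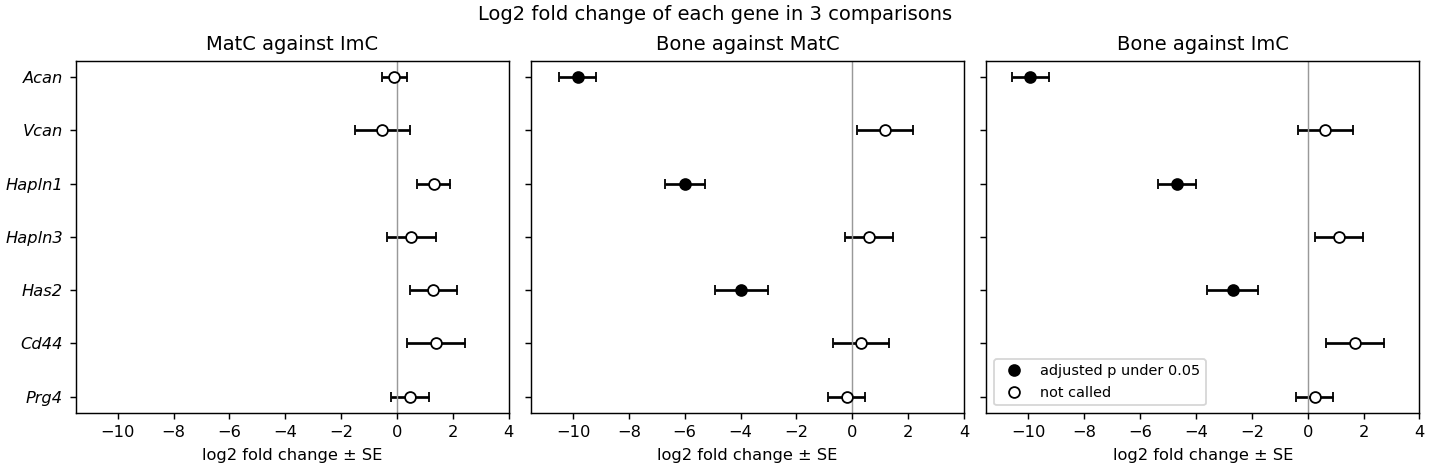
Log2 fold change and SE of each gene in the 3 comparisons, with filled points for an adjusted p under 0.05. Acan, Hapln1 and Has2 are filled on the negative side in both Bone comparisons, Acan near -10, and no gene is filled for MatC against ImC.

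Per kilobase of exon, the mix of the 7 transcripts differed between the tissues. In Bone they summed to 21.7 to 26.0 CPM per kb, against 236.8 to 742.1 in MatC and 278.7 to 382.9 in ImC. Vcan made up 31.3% to 45.5% of that sum in Bone, Cd44 25.8% to 38.8%, Hapln1 16.9% to 39.4% and Acan 0.307% to 1.12%. In MatC the sum was 59.6% to 75.5% Hapln1 and 20.5% to 35.6% Acan. In ImC it was 34.9% to 59.2% Hapln1 and 39.5% to 64.3% Acan, so Hapln1 was above Acan per kb in all 3 MatC libraries and in 2 of 3 ImC libraries. The order depends on the division by length: in ImC replicate 2, Acan had more reads than Hapln1, 17427 against 16629. Whether reads scale with exon length in these amplified libraries was not tested. Mean levels per kb were 384 ± 212 for Hapln1 and 139 ± 60.1 for Acan in MatC, and 155 ± 65.8 for Hapln1 and 149 ± 32.3 for Acan in ImC.

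Ratios of 2 genes inside a library do not depend on how libraries are scaled. With 3 libraries against 3, the exact two-sided permutation test cannot go below p = 0.1, and over the 15 ratio comparisons a p of 0.1 adjusts to 0.136. For Hapln1 to Acan, the log2 ratio of reads was 6.60, 4.72 and 3.56 in Bone, 1.54, 0.40 and 1.05 in MatC and 0.25, -0.07 and -1.22 in ImC. The 3 groups did not overlap. The difference was 3.96 for Bone minus MatC, 5.31 for Bone minus ImC and 1.35 for MatC minus ImC, each at exact p = 0.1, and the last equals 2.54 times more Hapln1 per Acan read in MatC. For Vcan to Acan, the log2 ratio averaged 6.97 ± 0.82 in Bone, -5.13 ± 3.15 in MatC and -4.40 ± 1.98 in ImC (SD, n = 3 each). Bone had 65.8 to 189 Vcan reads per Acan read, whereas Acan reads outnumbered Vcan reads by 8.36 to 429.9 times in MatC and 4.43 to 57.9 times in ImC. Bone did not overlap either cartilage group (exact p = 0.1 for each), and MatC minus ImC was -0.73 (exact p = 0.8).

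The neighbouring pair Hapln3 and Acan came apart in the same way. Its log2 ratio was 1.58, 0.89 and -0.82 in Bone, -11.83, -8.10 and -11.81 in MatC and -9.97, -10.84 and -11.12 in ImC. Bone differed from MatC by 11.13 and from ImC by 11.20 (exact p = 0.1 for each, no overlap), while MatC minus ImC was 0.06 (exact p = 1). Between the 2 link protein genes, Hapln3 to Hapln1, the mean log2 ratio was -4.41 ± 0.59 in Bone, -11.58 ± 2.67 in MatC and -10.30 ± 0.44 in ImC, so Hapln1 had more reads than Hapln3 in all 9 libraries. The synthase to receptor ratio, Has2 to Cd44, averaged -5.61 ± 0.63 in Bone, -1.21 ± 2.02 in MatC and -0.31 ± 1.60 in ImC. Bone lay below all 6 cartilage libraries (exact p = 0.1 against each group), and MatC minus ImC was -0.89 (exact p = 0.6).

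**Figure D4:**
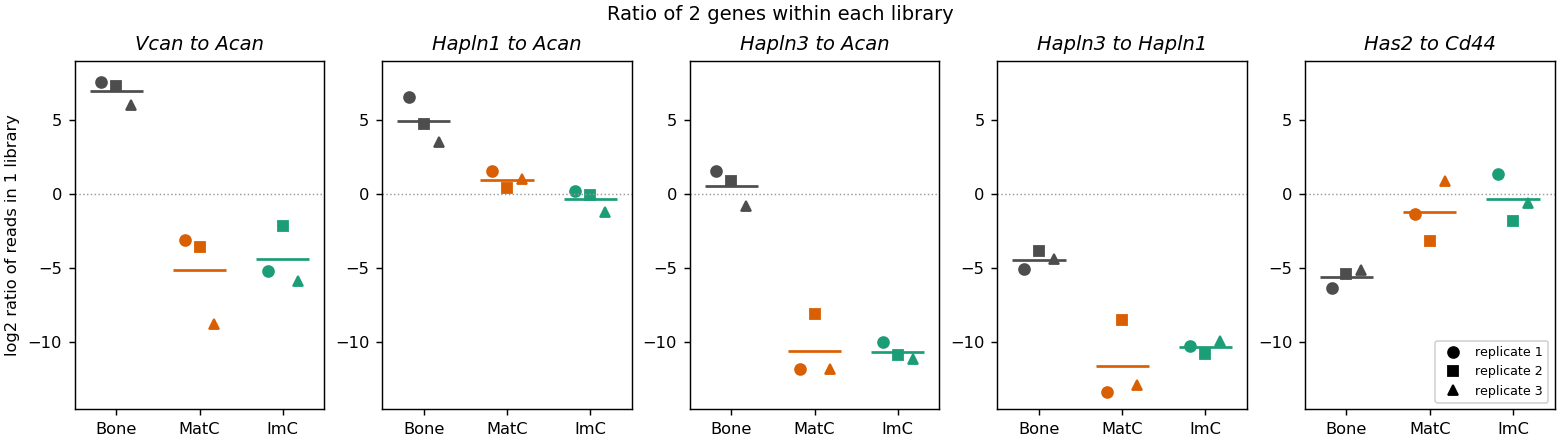
Log2 ratio of reads of 2 genes within each library, 1 point per library with a bar for the group mean; 0 means equal reads. Hapln1 to Acan steps down through Bone, MatC and ImC without overlap, and for Vcan to Acan the Bone libraries lie between 6.04 and 7.56, against at most -3.06 in MatC and -2.15 in ImC.

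The list of lecticans and link proteins also held 2 further lecticans and 2 further link proteins. Hapln4, best known as a link protein of the brain, had 21.9, 11.8 and 13.3 CPM in Bone, 1.59, 5.29 and 0 CPM in MatC and no read in ImC. It was called higher in Bone and in MatC than in ImC (edgeR adjusted p = 0.00251 and 0.0268), at least 241-fold and at least 35.3-fold against a floor of 3 reads over the ImC group. Bcan, the lectican brevican, had 8.82, 6.94 and 7.66 CPM in Bone, 0.455, 2.40 and 1.98 CPM in MatC and 0.167, 0.0993 and 0.926 CPM in ImC. It rose by 4.29 ± 0.88 on the log2 scale in Bone against ImC (adjusted p = 0.0062). Ncan, the lectican neurocan, and Hapln2 did not pass the filter, with 94 and 2 reads in all. Of the 6 tested genes of this list, 2 were called lower and 0 higher in Bone against MatC, 2 lower and 2 higher in Bone against ImC, and 1 higher (Hapln4) in MatC against ImC. Counts in this and the following lists stand beside 4.69% of all tested genes called lower and 1.36% called higher in Bone against MatC, 16.8% and 14.3% in Bone against ImC, and 2.29% and 5.41% in MatC against ImC.

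Among 7 tested genes of hyaluronan synthesis, 2 fell in Bone against MatC, 3 fell in Bone against ImC and 0 passed edgeR's test in MatC against ImC. Gfpt2, which feeds glucosamine into the precursor pool, averaged 1.97 ± 0.45 CPM in Bone, 26.3 ± 15.6 CPM in MatC and 27.6 ± 5.98 CPM in ImC, and in Bone it fell by 3.72 ± 0.47 against MatC and fell by 3.80 ± 0.47 against ImC (adjusted p = 0.00207 and 0.000616). Ugdh, the enzyme that makes UDP-glucuronic acid, fell by 0.99 ± 0.28 in Bone against ImC (adjusted p = 0.0217). The remaining called gene in both was Has2. The medians of the list were -0.68, -0.31 and -0.03 for Bone against MatC, Bone against ImC and MatC against ImC.

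Among 8 tested hyaluronan receptors and binding proteins, Susd5, which carries a link domain, was the only gene called in Bone against MatC. Its levels were 0.271, 0.257 and 0.0563 CPM in Bone, 141.0, 64.0 and 208.5 CPM in MatC and 359.0, 204.9 and 213.2 CPM in ImC. In Bone it fell by 9.44 ± 0.70 against MatC and fell by 10.35 ± 0.72 against ImC (adjusted p = 0.000155 and 4.83e-05). Hmmr, a hyaluronan-binding protein of dividing cells, fell by 2.60 ± 0.40 in Bone against ImC (adjusted p = 0.0017). Stab1, a scavenger receptor of macrophages and sinusoidal endothelium, was called higher than ImC in Bone by 3.93 ± 1.05 and in MatC by 4.04 ± 1.06 (adjusted p = 0.0188 and 0.0463), with 0.566 CPM in MatC replicate 3, against 2.20 and 10.3 CPM in replicates 1 and 2.

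Of 5 tested genes of hyaluronan breakdown, Cemip, a protein needed for hyaluronan depolymerisation, was called higher than ImC in MatC by 3.31 ± 0.69 and in Bone by 2.74 ± 0.67 (adjusted p = 0.0206 and 0.0133). Of the hyaluronidase genes, in Bone against ImC, Hyal1 fell by 2.60 ± 0.59 and Hyal3 fell by 2.66 ± 0.75 (adjusted p = 0.00933 and 0.023). None of the 5 passed edgeR's test in Bone against MatC.

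The 8 tested proteases that cut lecticans, with their inhibitor, held 2 genes called higher in MatC against ImC, 3 higher and 1 lower in Bone against ImC and 0 in Bone against MatC. Mmp13, a collagenase that also cuts aggrecan, had 1 read in all of ImC, and the ratio of pooled reads was 1443 for Bone to ImC (95% counting interval 259 to 57041) and 1431 for MatC to ImC (256 to 56594). Adamts9 averaged 82.7 ± 1.46 CPM in Bone, 23.3 ± 15.2 CPM in MatC and 4.42 ± 2.17 CPM in ImC, and was called higher than ImC in Bone by 4.22 ± 0.60 and in MatC by 2.41 ± 0.56 (adjusted p = 0.00115 and 0.0316). The aggrecanase Adamts4 rose by 4.75 ± 1.19 and Adamts20 fell by 1.84 ± 0.59 in Bone against ImC (adjusted p = 0.0143 and 0.0395). Adamts5, the other main aggrecanase, had 10.2, 3.6 and 6.36 CPM in Bone, 40.0, 10.4 and 0 CPM in MatC and 0, 0.0496 and 1.64 CPM in ImC and was not called; it is named after its values were seen.

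Chondroitin sulfate, the sugar that fills aggrecan, is built by the largest of these lists, with 20 tested genes. In Bone against MatC 5 fell and 0 rose, in Bone against ImC 7 fell and 2 rose, and in MatC against ImC 1 fell and 2 rose. Slc26a2, the sulfate importer mutated in human chondrodysplasias, averaged 63.1 ± 4.56 CPM in Bone, 332.6 ± 12 CPM in MatC and 787.7 ± 243 CPM in ImC. In Bone it fell by 2.40 ± 0.31 against MatC and fell by 3.64 ± 0.32 against ImC, and in MatC it fell by 1.24 ± 0.29 against ImC (adjusted p = 0.0021, 0.000127 and 0.0332). Csgalnact1, which starts the chain, had log2 fold changes of -3.22 ± 0.38 in Bone against MatC and -3.99 ± 0.39 in Bone against ImC (adjusted p = 0.00151 and 0.000205). The same 2 values were -2.49 ± 0.42 and -3.18 ± 0.43 for Papss2, which makes the activated sulfate donor, and -3.64 ± 0.60 and -4.76 ± 0.61 for Xylt1, which puts the first sugar on the core protein, and all 4 were called. The sulfotransferase genes Chst13 and Chst15 went the other way and were called higher than ImC in Bone by 7.10 ± 1.20 and 2.09 ± 0.39 and in MatC by 4.51 ± 1.14 and 1.75 ± 0.38; the Bone pair is named after its values were seen. In MatC, Chst13 rested on replicates 1 and 2, at 3.71 and 6.77 CPM, with no read in replicate 3.

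Of 4 tested ezrin-radixin-moesin family genes, whose products tie Cd44 to the cytoskeleton, Msn rose by 2.03 ± 0.50 and Ezr fell by 1.32 ± 0.31 in Bone against ImC (adjusted p = 0.0139 and 0.0104), and 0 were called in the other 2 comparisons. Of the 12 tested joint surface and synovial genes, 3 rose and 2 fell in MatC against ImC, 2 fell in Bone against MatC, and 3 rose and 2 fell in Bone against ImC. Gdf5, a joint-forming growth factor, averaged 1.10 ± 0.0935 CPM in Bone, 0.675 ± 0.46 CPM in MatC and 14.3 ± 13.1 CPM in ImC. Against ImC, it fell by 4.59 ± 0.81 in MatC and fell by 3.70 ± 0.73 in Bone (adjusted p = 0.0119 and 0.00533). The Wnt inhibitor gene Sfrp5 fell by 4.58 ± 0.71 in MatC against ImC (adjusted p = 0.00662). Col22a1, a collagen gene of tissue junctions, went the other way, at 804.5 ± 100.04 CPM in Bone, 95.2 ± 135 CPM in MatC and 1.92 ± 0.66 CPM in ImC. It was called higher than ImC in Bone and in MatC (adjusted p = 0.00294 and 0.0332), but its MatC libraries stood at 34.4, 250.04 and 1.13 CPM, so replicate 2 carried that mean and replicate 3 lay below all 3 ImC libraries. Vit and Clic5 were the remaining genes called higher than ImC in both groups, and Clic5 is named after its values were seen. In MatC, Clic5 had 2.27, 0.775 and 0 CPM, so the call there rested on replicates 1 and 2. In Bone against MatC the genes that fell were Sfrp5 and Erg.

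**Figure D5:**
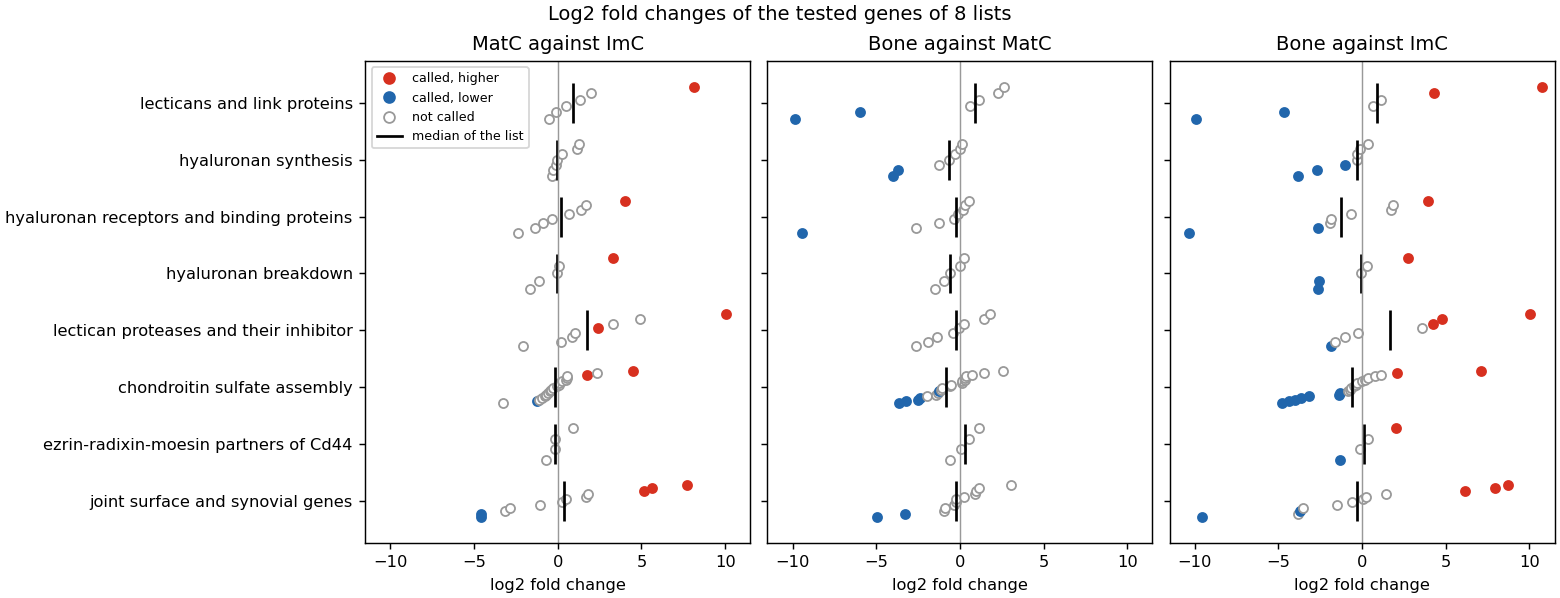
Log2 fold change of each tested gene in 8 lists (rows) and 3 comparisons (panels), red and blue for genes called higher and lower, open for not called, with a bar at the list median; some genes with no read in a group have fitted values that depend on the prior count. In chondroitin sulfate assembly, 5 genes are called lower and 0 higher in Bone against MatC, and 7 lower and 2 higher in Bone against ImC. Of the genes shown, 33 are called in Bone against ImC, against 12 in Bone against MatC and 13 in MatC against ImC.

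Of the 70 tested entries in these 8 lists, 12 were called in Bone against MatC, beside 6.05% of all tested genes, 33 in Bone against ImC, beside 31.1%, and 13 in MatC against ImC, beside 7.71%. Leaving out both ImC replicate 2 and MatC replicate 3, the last count became 20. The medians of the 8 lists lay between -0.83 (chondroitin sulfate assembly) and 0.88 (lecticans and link proteins) for Bone against MatC, between -1.27 (receptors and binding proteins) and 1.67 (proteases) for Bone against ImC, and between -0.17 (ezrin-radixin-moesin genes) and 1.73 (proteases) for MatC against ImC, beside all-gene medians of -0.03, -0.02 and 0.03.

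Similar patterns over the 9 libraries were sought by the root mean square difference of centred log2 CPM among genes averaging at least 20 CPM. The closest to Acan were Col9a3, a chain of collagen IX, at 0.46, Matn1, a cartilage matrilin, at 0.50, and 3110079O15Rik (Snorc, a chondrocyte membrane proteoglycan gene) at 0.65, against a median of 4.73 over 4887 candidates. All 3 are also in the immature chondrocyte marker list. Closest to Hapln1 were Stk26 at 0.79, Gm28730 at 0.84 and Slc38a3 at 0.85, against a median of 2.73. For Vcan they were Pros1 at 0.65, Irf2bpl at 0.71 and Cpne3 at 0.77 (median 1.75). Like Vcan, these 3 were lowest in MatC replicate 3 within MatC and highest in ImC replicate 2 within ImC. Their choice by likeness over the same libraries favours this. Cd44 was followed most closely by Cdh11, a mesenchymal cadherin, at 0.65, Psd3 at 0.68 and Fosl2, an AP-1 subunit, at 0.71 (median 1.86). Fosl2, chosen in the same way, had 4.42, 39.8 and 0.855 CPM in ImC replicates 1 to 3, the same order as Cd44. Thbs1 at 0.71, Ctgf at 0.76 and Sertad4 at 0.78 were closest to Has2 (median 1.94), and Ctgf stood at 2.60 to 11.1 CPM in Bone, 71.3 to 216.9 CPM in MatC and 22.8 to 163.5 CPM in ImC. For Hapln3 and Prg4, both at few reads, the medians over candidates were 1.07 and 0.76, with Glrx5, Mast4 and Xpr1 the closest to Hapln3 and Bnip3l, 1810022K09Rik and Cops2 to Prg4. Among the 7 genes themselves the smallest such difference was 1.28, between Hapln3 and Prg4, which is above the median over candidates of either gene. Next were 1.52 between Vcan and Cd44 and 1.55 between Hapln1 and Has2, and the largest was 5.83 between Acan and Cd44. These are descriptions over 9 libraries that share the same depth and composition differences.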

How the data were processed

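The authors deposited a table of raw counts of reads per gene for all 9 libraries, made, per the submitters' processing notes, with tools that included Trimmomatic 0.30, TopHat2, Bowtie2, HTSeq and edgeR and the mm10 genome; their roles and order are not given in the sources used here. Per the labels' protocols, RNA from a PicoPure kit was DNase-treated, amplified in 1 round and made into Illumina TruSeq v2 libraries. A second deposited table holds a score, whole numbers that the authors made by scaling each library, and served only to recover their scaling factors. All per-sample columns were mapped by name.

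Counts were tested with edgeR 4.0.16 (R 4.3.3): filterByExpr with a minimum count of 10, TMM scaling, the quasi-likelihood test with all 9 libraries in 1 fit, and Benjamini-Hochberg adjustment over 14257 genes, called at an adjusted p under 0.05. The SE was taken as the size of the log2 fold change divided by the root of the F statistic. CPM are scaled by TMM; CPM per kb use merged GENCODE M21 exon lengths. Ratios add 0.5 to each count. Sequences come from RefSeq (GRCm38.p6); 5 of the 7 genes matched, and Cd44 is not printed. Intervals and floors of 3 reads describe counting error alone, since reads were amplified without molecular identifiers. No 2 replicates agreed within sampling noise. The procedure was tested on simulated data with known changes. In each comparison, only 66 or 67 of 14257 genes were changed at each fold. Over the 3 comparisons it called 0% of 2-fold changes, 28.4% to 32.8% of 4-fold changes and 56.1% to 77.3% of 8-fold changes. The adjustment is less strict where more genes differ, so these rates need not hold in the real comparisons. Ugdh, for example, was called in Bone against ImC at -0.99 on the log2 scale. A gene that was not called may still differ.

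The 7 genes, the 8 lists of related genes and the 10 marker lists were chosen with earlier results of these data known. Named genes were the 7, up to 4 called genes per list and comparison by smallest p, the other lecticans and link proteins, Has1, Has3, and the 3 genes most similar to each of the 7 in pattern; exceptions are stated. Alternatives were DESeq2 1.42.0, limma 3.58.1 voom with and without library weights, other scalings and filters, a replicate block and leaving out libraries.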

Additional observations from a re-analysis of the deposited data

How the results depend on the processing

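Of 419 values for the 7 genes under 20 other settings, 375 kept their direction and side of the threshold, 8 became called, 22 lost a call (all Has2) and 14 changed sign. Acan and Hapln1 stayed called lower in Bone in all 20. The cause of these changes was not tested. With library size alone as scaling, the median of all genes moved by -0.53 for MatC against ImC, 1.01 for Bone against MatC and 0.48 for Bone against ImC. Calls higher became 53.4%, 40.1% and 59.0% of all calls instead of 70.2%, 22.5% and 46.0%. Signs turned there for Hapln3 (-0.23) and Prg4 (-0.15) in MatC against ImC and for Prg4 (0.80) in Bone against MatC, and Has2 lost both calls (adjusted p = 0.131 and 0.174). It also lost both under limma-voom, which added Cd44 as higher in Bone against ImC (2.85 ± 0.99, adjusted p = 0.0469), and the one against ImC with the authors' factors (adjusted p = 0.0530). limma-voom with library weights called 5 of the 7 in Bone against ImC, adding Cd44 and Vcan. Hapln3 to Acan in MatC minus ImC turned to -0.14 with 0 added to each count.

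The 13 calls among the lists of related genes in MatC against ImC became 5 with library size only, 3 with only the 2 groups in the fit and 20 without both ImC replicate 2 and MatC replicate 3. The 12 in Bone against MatC became 5 with library size only, 19 with no filter, 22 with DESeq2 and 20 with limma-voom and library weights. Among all genes, MatC against ImC had 1099 calls, and 358 with library size only, 2229 with DESeq2 and 205 with only those 2 groups. Bone against MatC had 863, and 297 with library size only, 1504 with no filter, 1964 with DESeq2 and 1858 with limma-voom and library weights. Bone against ImC had 4432, and 2073 with library size only and 8049 with limma-voom and library weights.

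Leaving out 1 library at a time gave 0 to 1 of the 7 called in MatC against ImC (2 without both named libraries, with Vcan at 1.65 there and Cd44 at -0.13 in Bone against MatC). List calls ran from 4 to 17 in MatC against ImC and from 6 to 20 in Bone against MatC. In MatC against ImC the log2 fold changes ran from -0.45 to 0.16 for Acan (-0.62 without both), from -1.52 to 1.11 for Vcan and from -1.45 to 1.01 for Hapln3. In Bone against MatC they ran from -0.11 to 0.99 for Cd44 and from -0.45 to 0.10 for Prg4, and in Bone against ImC from -0.0027 to 0.91 for Prg4. Ratios of MatC minus ImC ran from -1.76 to 1.08 for Vcan to Acan, from -1.18 to 0.69 for Hapln3 to Acan and from -1.93 to 0.0876 for Has2 to Cd44.

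Groups share replicate numbers, and deviations of same-numbered libraries had correlations of -0.13 to 0.24, highest for MatC with ImC in replicates 1 and 3 (0.23 and 0.24). Correlations of differently numbered libraries were not computed, so these values do not settle whether the numbers mark pairs. The main test does not pair them. With the replicate as a block, 0, 2 and 2 of the 7 were called for MatC against ImC and for Bone against MatC and ImC (Has2 adjusted p = 0.0644 and 0.0926), list calls in MatC against ImC became 8, and all calls 725, 814 and 4088.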
